A study of Rattus norvegicus with 6 samples.

Results

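Osteopontin, the secreted glycoprotein encoded by Spp1, and the receptors it is known to bind were followed as 9 genes in snRNAseq data of rat brain tissue taken 48 h after permanent middle cerebral artery occlusion (MCAO). The genes were chosen by symbol, with earlier results of these data known, and make up 9 of the 30560 genes counted. They comprise the ligand gene Spp1 (ENSRNOG00000043451), the receptor gene Cd44 (ENSRNOG00000006094), the integrin alpha subunit genes Itgav, Itga4, Itga5 and Itga9, and the beta subunit genes Itgb1, Itgb3 and Itgb5. All rats were male wild-type Wistar rats, 12 weeks old. In MCAO rats a filament closed the right middle cerebral artery, and Sham rats underwent the same surgery without the filament. Tissue came from coronal slices, and the hemispheres were sequenced separately as 6 libraries. Sham L and Sham R are the left and right hemispheres of the same 4 Sham rats. The 3 rats with moderate infarcts gave mMCAO contra and mMCAO ipsi, and the 4 with severe infarcts gave sMCAO contra and sMCAO ipsi. Here contra is the left and ipsi the right, infarcted hemisphere, and each library pools its rats.

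Osteopontin binds CD44, a transmembrane glycoprotein best known as the receptor for hyaluronan, and several integrins, which are receptors made of 1 alpha and 1 beta subunit. The alpha v subunit (Itgav) pairs with the beta1, beta3 and beta5 subunits, and these pairs recognise the RGD motif of osteopontin, fibronectin and other matrix proteins, as does alpha5 beta1. The alpha4 and alpha9 subunits pair with beta1 and bind a neighbouring site, which is exposed more fully once thrombin or matrix metalloproteinases cut osteopontin. In injured brain tissue osteopontin is known as a product of activated microglia and infiltrating macrophages, and CD44 as a marker of reactive astrocytes.

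The 6 libraries held 8665 to 14491 nuclei, 33012945 to 52513380 unique molecular identifiers (UMIs) and a median of 2059 to 3360 UMIs per nucleus, all 3 lowest in sMCAO ipsi. Pairs of libraries shared 118 to 280 cell barcodes, 1.36 to 2.16% of the smaller library. Nuclei were assigned to cell classes by lists of marker genes that hold none of the 9 genes, and a class is called, for example, myeloid-like. Nuclei that met the criteria of several classes (mixed, 6.49 to 9.15% of a library) were left out as possible doublets, as were unassigned nuclei (2.64 to 7.77%). A further class, other neuron-like nuclei, made up 7.88 to 34.1% of a library, lowest in sMCAO ipsi and highest in Sham R. It was not tested and enters below only in shares of UMIs over all neuron-like classes, so the 3 neuron classes tested do not cover all neurons. The summed list of a class stood at 7355 to 16140 UMIs per 1000000 counted (CPM) in myeloid-like, astrocyte-like, OPC-like (oligodendrocyte precursor cell), oligodendrocyte-like and endothelial-like nuclei, and the myeloid list stood at 100.6 to 222.7 CPM in astrocyte-like and 103.7 to 167.0 CPM in glutamatergic neuron-like nuclei. Higher lists of other classes included the myeloid list in endothelial-like nuclei (649.9 to 1636 CPM). The list of other GABAergic neurons stood at 7246 to 8887 CPM in OPC-like nuclei, against 6340 to 6689 CPM in the neurons themselves. That list thus does not separate these classes. Myeloid-like nuclei held the lists of other GABAergic neurons (848.1 to 3683 CPM), neurons (294.1 to 2176), OPCs (390.0 to 2031) and oligodendrocytes (732.9 to 1886). Fibroblast-like nuclei held the astrocyte list at 947.9 to 3051 CPM. Neuron markers in astrocyte-like nuclei moved with the groups, from 2050 and 2012 CPM in Sham over 1320 and 1447 in MCAO contra to 1037 in mMCAO ipsi and 487.8 in sMCAO ipsi, and did so in the same order of groups in OPC-like nuclei (2123, 1884, 1575, 1585, 1259 and 888.5 CPM), and their part in the results was not tested. Differences were tested with edgeR's quasi-likelihood test on UMIs summed per class and library, with Benjamini-Hochberg adjustment over all genes of a class. Calls required an adjusted p below 0.05 together with a log2 fold change of 0.6 or more in either direction. Each group has 2 libraries, the hemispheres of 1 pool of Sham rats or 2 pools of unequal severity. The p-values thus rest on spread between hemispheres in Sham mixed with spread between pools of unequal severity in MCAO. They do not measure the spread between single rats. An exact permutation test of 2 against 2 could not go below p = 0.3333. Intervals in parentheses are exact 95% intervals of counting error only. Folds above the level of 3 counts, given where a group held no UMI, likewise leave out the spread between nuclei.

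The promoters of Spp1 and Cd44 are shown because both transcripts were among the members with the largest differences in infarcted tissue. The sequences are the 250 bases before the start of each gene on the minus strand of the RefSeq annotation (GRCr8), Spp1 at chr14:5619805-5620054 and Cd44 at chr3:109699425-109699674, where 8 of the 9 genes had an entry (all but Itgb3). Capitals mark the letters TATAAA and TTTAAA.
Spp1: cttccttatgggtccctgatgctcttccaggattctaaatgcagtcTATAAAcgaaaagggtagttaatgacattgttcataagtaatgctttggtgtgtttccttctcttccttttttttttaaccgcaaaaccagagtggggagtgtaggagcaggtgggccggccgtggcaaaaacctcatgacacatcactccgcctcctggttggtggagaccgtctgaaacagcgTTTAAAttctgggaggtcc
Cd44: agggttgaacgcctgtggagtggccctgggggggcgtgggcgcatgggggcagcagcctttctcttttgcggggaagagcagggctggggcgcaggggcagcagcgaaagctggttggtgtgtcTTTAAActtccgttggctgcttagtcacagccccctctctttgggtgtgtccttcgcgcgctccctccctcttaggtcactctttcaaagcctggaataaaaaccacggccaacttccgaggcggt
TTTAAA lies at bases -19 to -14 in Spp1 and at -126 to -121 in Cd44, and TATAAA lies at -204 to -199 in Spp1. On either strand, TTTAAA was found in 12.3% and TATAAA in 12.9% of 33469 promoters of this length. Of the other motifs searched, GGGCGG was found in the promoters of Itgav, Itga5, Itga9 and Itgb1 and in 30.5% of all promoters, and TGANTCA in none of the 8 and in 6.34% of all. The GC content was 46.8% for Spp1 and 60.8% for Cd44. A match describes letters only.

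Over whole libraries, Spp1 stood at 0.342 and 0.144 CPM in Sham L and Sham R and at 0.826 and 1.69 in the moderate and severe MCAO contra libraries, against 14.0 in mMCAO ipsi and 67.5 in sMCAO ipsi. Both MCAO ipsi libraries lay above all others, and the severe one above the moderate one. Cd44 followed the same order of groups, with 2.55 and 2.71 CPM in Sham, 2.73 and 3.53 in MCAO contra, and 17.4 and 66.1 in the moderate and severe MCAO ipsi libraries. In MCAO ipsi against Sham, 7 of 9 members rose (13.2% of 17186 genes were called), with log2 fold changes of 6.96 ± 0.93 (SE) for Spp1 (edgeR adjusted p = 0.0134), 4.58 ± 0.73 for Itga5 (0.0185), 3.64 ± 0.56 for Cd44 (0.0171), 1.74 ± 0.27 for Itgb5 (0.0175), 0.91 ± 0.23 for Itga4 (0.0446), 0.69 ± 0.15 for Itgb1 (0.0329) and 0.64 ± 0.13 for Itgav (0.029). Itgb3 (0.33, adjusted p = 0.462) and Itga9 (0.58, 0.051) did not pass. Against MCAO contra, 4 of 9 rose (4.75% of genes were called), namely Spp1 by 4.86 ± 0.77 (edgeR adjusted p = 0.0304), Itga5 by 3.57 ± 0.66 (0.0388), Cd44 by 3.55 ± 0.55 (0.0295) and Itga4 by 1.11 ± 0.23 (0.0475). With the rat pools as a block, as contra and ipsi share their animals, Itgb5 (1.01, adjusted p = 0.0272) and Itgb1 (0.65, 0.0238) were also called. No member was called in MCAO contra against Sham by edgeR (0% of genes; 1788 genes and 1 member had an unadjusted p under 0.05) or by DESeq2, which called 76 genes.

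The whole-library calls against Sham fell from 7 to 0 without Sham L, Sham R or mMCAO contra, to 1 without sMCAO contra and to 4 without sMCAO ipsi, and those against MCAO contra from 4 to 0 without any of the Sham or contra libraries and changed to 8 without mMCAO ipsi. In such sums the number of cells of a type and the RNA per cell cannot be told apart. Myeloid-like nuclei made up 0.0991 and 0.0881% of nuclei in Sham, 1.35 and 1.21% in MCAO contra, and 7.34 and 19.7% in the moderate and severe MCAO ipsi libraries. The members were therefore described within classes.

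Spp1 was highest in myeloid-like nuclei in both MCAO ipsi libraries. Of all Spp1 UMIs, 49.2% (45.2 to 53.2) in mMCAO ipsi and 69.5% (67.5 to 71.4) in sMCAO ipsi lay in myeloid-like nuclei. The stricter gate gave 45.0 and 65.4%, and leaving out mixed and unassigned nuclei, an alternative chosen after seeing the data, gave 63.3 and 78.5%. Mixed nuclei held a further 114 and 188 of the 624 and 2183 Spp1 UMIs. All neuron-like classes together, other neuron-like nuclei included, held 141 and 192 of them (22.6 and 8.80%). In Sham only 15 and 5 Spp1 UMIs were counted in all, none of them in the 13 and 12 myeloid-like nuclei.

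In myeloid-like nuclei the moderate and severe MCAO contra libraries had Spp1 at 64.9 CPM (13 UMIs, 195 nuclei) and 283.7 CPM (32 UMIs, 131 nuclei). The level was 292.6 CPM in mMCAO ipsi (307 UMIs, 950 nuclei) and 688.4 CPM in sMCAO ipsi (1517 UMIs, 1710 nuclei). The sMCAO contra and mMCAO ipsi libraries lay close together, so that the ordering of the groups rested on the lowest and the highest library. Pooled over its 2 libraries, MCAO ipsi was 3.90-fold (2.90 to 5.37) above MCAO contra. It was at least 4.25-fold above the level of 3 counts over the Sham group (131.9 CPM). That level rests on 13 and 12 Sham nuclei and leaves out the uneven spread of Spp1 over nuclei, so it is no firm bound. The edgeR test of MCAO ipsi against MCAO contra gave a log2 fold change of 1.54 ± 0.67 and did not pass (adjusted p = 0.576), whereas the fit with the rat pools as a block did (1.59, adjusted p = 0.0354). Without the nucleus with the most Spp1 UMIs, the contra levels were 35.2 and 188.5 CPM and the ipsi levels 275.7 and 678.7 CPM.

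Spp1 was unevenly spread among myeloid-like nuclei. In mMCAO ipsi 135 of 950 nuclei held a Spp1 UMI and the 10% of nuclei with the most Spp1 UMIs held 87.0% of them, and in sMCAO ipsi 542 of 1710 did and the top 10% held 68.1%. The highest single nuclei held 18 and 23 UMIs. When each nucleus was thinned to 1000 UMIs, so that libraries could be compared at 1 depth, 16.1% (12.1 to 20.8) of 298 myeloid-like nuclei in mMCAO ipsi and 33.3% (30.3 to 36.5) of 924 in sMCAO ipsi held a Spp1 UMI, against 14.2 and 31.7% before thinning. In MCAO contra 2 of 55 and 4 of 28 thinned nuclei did. Myeloid-like nuclei with fewer UMIs were left out here, which were 652 of 950 in mMCAO ipsi and 786 of 1710 in sMCAO ipsi. Glutamatergic neuron-like nuclei, a class not known for Spp1, held a UMI in 0.338% (0.162 to 0.621) and 0.753% (0.325 to 1.48) of thinned nuclei in the same libraries, from median depths of 4924.5 and 8655 UMIs against 763 and 1053 in myeloid-like nuclei.

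**Figure D1:**
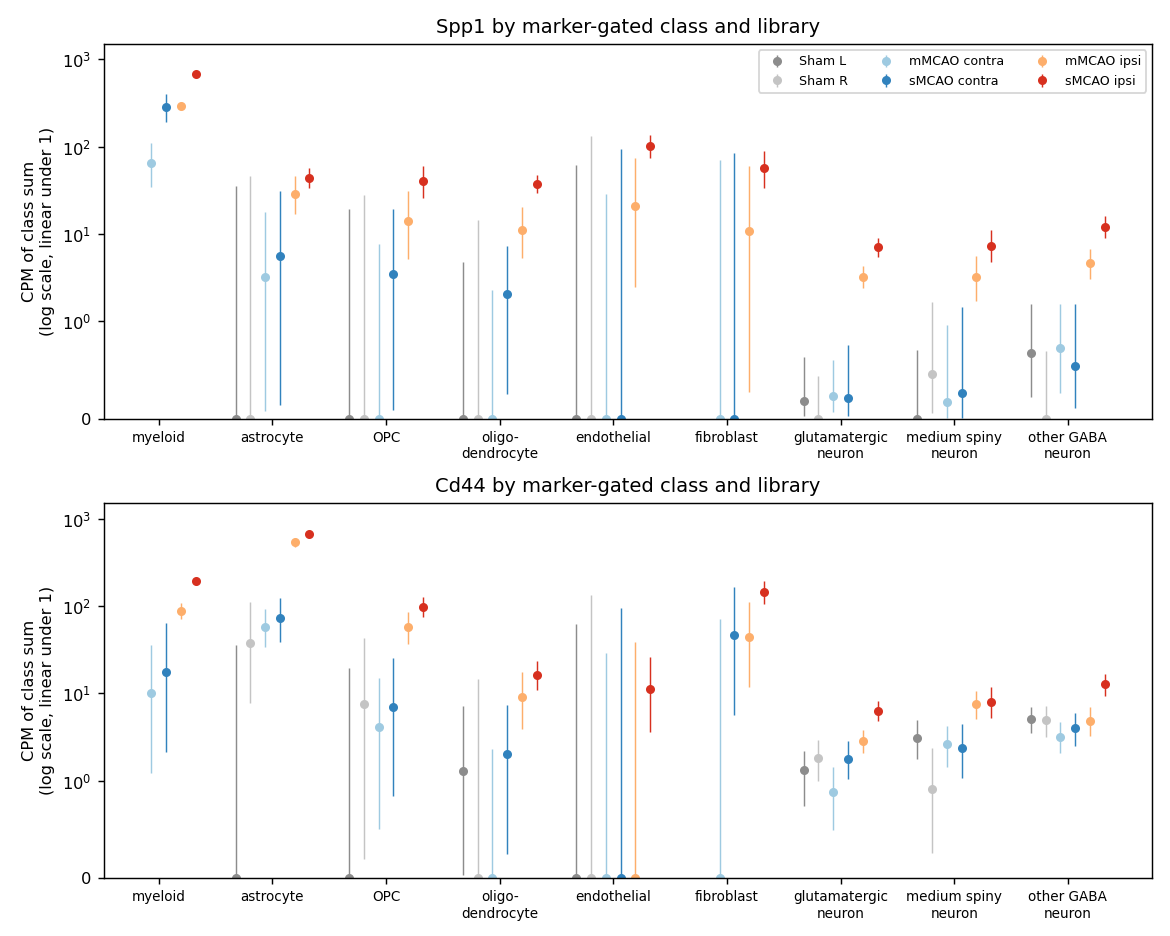
Levels of Spp1 and Cd44 (CPM, symmetric log axis) by cell class and library, with points for single libraries and bars for exact 95% Poisson intervals of counting error. In MCAO ipsi Spp1 is highest in myeloid-like nuclei (292.6 and 688.4 CPM) and Cd44 in astrocyte-like nuclei (534.7 and 658.0 CPM).

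**Figure D2:**
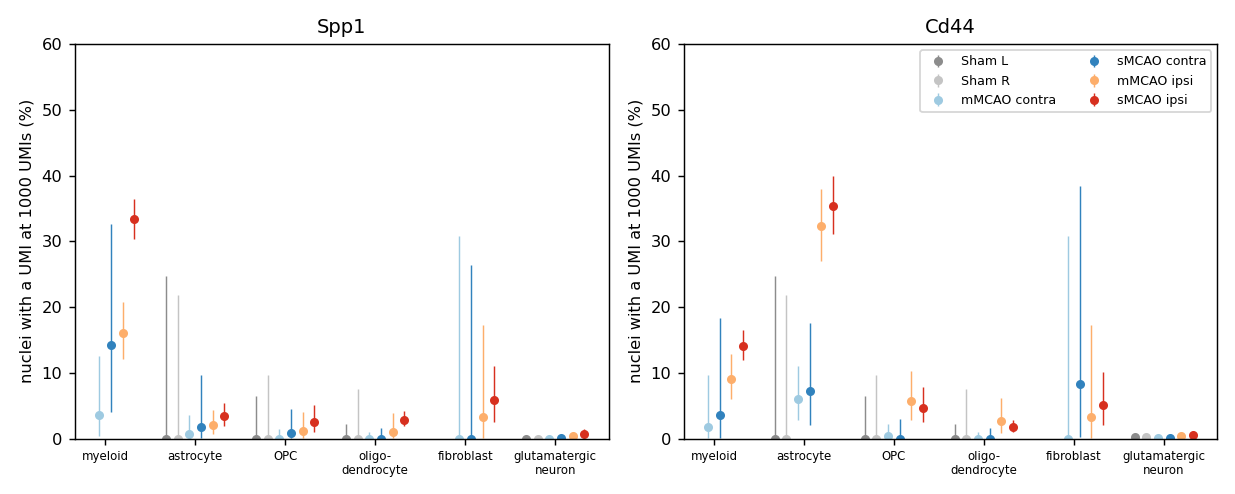
Share of nuclei (%) with at least 1 UMI of Spp1 or Cd44 after thinning to 1000 UMIs, by class and library, with exact 95% binomial intervals. In sMCAO ipsi 33.3% of myeloid-like nuclei held Spp1 and 35.4% of astrocyte-like nuclei held Cd44, while glutamatergic neuron-like nuclei stayed below 1% for both.

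Spp1 UMIs were also present in other classes of the infarcted hemisphere, at lower levels. Astrocyte-like nuclei held 0 UMIs in Sham, 3.21 and 5.61 CPM in MCAO contra (1 UMI each), 29.0 in mMCAO ipsi and 43.8 in sMCAO ipsi. In OPC-like nuclei the level was 14.2 and 40.8 CPM in MCAO ipsi, with 1 UMI in all other libraries together. Both classes were under the filter on low counts for Spp1, and their pooled MCAO ipsi levels were at least 2.40-fold and at least 3.16-fold above the level that 3 counts over the Sham group allow. Without the filter Spp1 was called against MCAO contra in astrocyte-like (3.10, edgeR adjusted p = 0.00281), OPC-like (4.09, 0.000264) and oligodendrocyte-like nuclei (4.84, 2.72e-11). Oligodendrocyte-like nuclei went from 0 in Sham and 2 UMIs in MCAO contra to 11.2 CPM in mMCAO ipsi and 37.9 in sMCAO ipsi, where 64 of 1418 nuclei held 70 UMIs. That difference was not called by edgeR against Sham (adjusted p = 0.0555) or MCAO contra (log2 fold change 4.87 ± 0.98, adjusted p = 0.103), and was called against MCAO contra with the rat pool block (4.57, adjusted p = 0.0494). Endothelial-like nuclei held 45 Spp1 UMIs in sMCAO ipsi (100.6 CPM), but 29 of them came from 1 nucleus, without which the level was 36.1 CPM. Fibroblast-like nuclei of sMCAO ipsi held 18 UMIs in 15 of 167 nuclei (57.0 CPM).

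Genes of the myeloid marker list were counted in these classes too, and their values are given beside those of Spp1. In mMCAO ipsi and sMCAO ipsi, Spp1 in astrocyte-like nuclei reached 9.93 and 6.37% of the myeloid-like level, whereas the myeloid marker list reached 1.68 and 1.72%. In OPC-like nuclei Spp1 stood at 4.86 and 5.92% and the list at 3.48 and 3.39%, and in oligodendrocyte-like nuclei Spp1 at 3.84 and 5.51% and the list at 1.98 and 1.59%. In endothelial-like nuclei the list stood at 12.8 and 12.6% and Spp1 at 7.08 and 14.6%. The list stood nearly as high in mMCAO contra and sMCAO contra, at 1.66 and 1.56% in astrocyte-like and 3.03 and 2.76% in OPC-like nuclei. In oligodendrocyte-like nuclei it stood there at 1.085 and 1.245%, and in endothelial-like nuclei at 10.9 and 10.6%. Endothelial-like nuclei of Sham L and Sham R held the list at 1079 and 649.9 CPM. The part of myeloid RNA in these Spp1 counts was not tested.

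In neurons Spp1 rose from a very low level. Glutamatergic neuron-like nuclei held 0.176 and 0 CPM in Sham, 0.235 and 0.209 in MCAO contra, and 3.24 and 7.08 in the moderate and severe MCAO ipsi libraries. The log2 fold change was 5.40 ± 0.74 against Sham (edgeR adjusted p = 0.00899) and 4.42 ± 0.60 against MCAO contra (0.0101). In medium spiny neuron-like nuclei Spp1 rose by 4.36 ± 0.82 against Sham (adjusted p = 0.0127) and 4.43 ± 0.81 against MCAO contra (0.019), to 3.26 and 7.39 CPM. In other GABAergic neuron-like nuclei it rose by 4.24 ± 0.71 against Sham (adjusted p = 0.0202), to 4.69 and 12.1 CPM, and against MCAO contra were called by edgeR with the block (3.53, adjusted p = 0.00295) and by DESeq2 (3.71, 0.00281) but not by edgeR without the block (3.62, 0.0798). DESeq2 gave no adjusted p for Spp1 in medium spiny neuron-like nuclei in either comparison (unadjusted p = 0.000648 and 0.000526), nor in other GABAergic neuron-like nuclei against Sham (9.33e-07), so that these calls have no check by that tool. In mMCAO ipsi and sMCAO ipsi, Spp1 in glutamatergic neuron-like nuclei was 1.11 and 1.03% of the myeloid-like level and the myeloid marker list 1.33 and 1.05%. Medium spiny neuron-like nuclei gave 1.11 and 1.07% for Spp1 and 0.878 and 0.612% for the list. For other GABAergic neuron-like nuclei these were 1.60 and 1.76% for Spp1, with the list at 0.889 and 0.638%. In mMCAO contra and sMCAO contra, Spp1 in these 3 classes, in the same order, stood at 0.3615 and 0.07375%, 0.2666 and 0.09262%, and 1.125 and 0.1914%. The list stood there at 0.9507 and 0.9015%, 0.3637 and 0.4636%, and 0.4781 and 0.4598%. The part of myeloid RNA in the Spp1 counts of neurons was not tested. When 10% of each class sum was subtracted at the library's mean profile, Spp1 no longer passed the count filter in glutamatergic and medium spiny neuron-like nuclei and was not called in other GABAergic neuron-like nuclei (adjusted p = 0.0748). The calls against Sham in these 3 classes were also lost without Sham L (adjusted p = 0.138, 0.192 and 0.335) or Sham R (0.0965, 0.0651 and 0.124), in other GABAergic neuron-like nuclei without either contra library (0.0607 and 0.0596), and those against MCAO contra in the first 2 classes without either contra library (0.113 to 0.227).

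Cd44, the hyaluronan and osteopontin receptor, was highest in astrocyte-like nuclei. Its level there was 0 CPM in Sham L and 37.7 in Sham R (3 UMIs), 57.8 and 72.9 in the moderate and severe MCAO contra libraries (18 and 13 UMIs), and 534.7 and 658.0 in mMCAO ipsi and sMCAO ipsi (313 and 901 UMIs). The MCAO ipsi libraries were far above all 4 others. The values of the Sham and contra libraries did not overlap, though those of Sham rest on 3 UMIs. Cd44 rose by 5.09 ± 0.52 against Sham (edgeR adjusted p = 0.00012) and by 3.18 ± 0.32 against MCAO contra (0.000104), and both calls held under every alternative run. The size against Sham rests on the 3 UMIs of Sham R: it was 3.96 without Sham L and 11.24 without Sham R, where no Sham UMI was left and the fitted value is no bound. In pooled counts this was 9.81-fold (6.87 to 14.5) over MCAO contra. MCAO contra stood 3.85-fold (1.20 to 19.7) above Sham, where the fold rests on 3 UMIs and was not called.

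Of all Cd44 UMIs, 40.4% (36.9 to 43.9) in mMCAO ipsi and 42.2% (40.1 to 44.3) in sMCAO ipsi lay in astrocyte-like nuclei, which were 3.04 and 5.70% of the nuclei. Myeloid-like nuclei held 12.0% (9.80 to 14.5) and 19.8% (18.1 to 21.6). All neuron-like classes together, other neuron-like nuclei included, held 24.3 and 8.53% there. They held 89.3 and 79.8% in Sham L and Sham R, and 67.6 and 71.1% in mMCAO contra and sMCAO contra. Unassigned nuclei held 56 and 282 Cd44 UMIs, at 75.1 and 185.1 CPM. In astrocyte-like nuclei 32.3% (27.0 to 38.0) of 294 thinned nuclei in mMCAO ipsi and 35.4% (31.1 to 39.9) of 472 in sMCAO ipsi held a Cd44 UMI, against 6.0% (2.78 to 11.1) and 7.27% (2.02 to 17.6) in MCAO contra and 0.338 and 0.470% of glutamatergic neuron-like nuclei in MCAO ipsi. Before thinning the shares in MCAO ipsi were 34.5 and 52.8%. The top 10% of astrocyte-like nuclei held 58.8 and 45.7% of their Cd44 UMIs, against 87.0 and 68.1% for Spp1 in myeloid-like nuclei. These shares are before thinning. Astrocyte-like nuclei were deeper, with medians of 1351.5 and 2424.5 UMIs against 763 and 1053, and the part of depth was not tested.

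OPC-like nuclei showed Cd44 at 0 and 7.63 CPM in Sham, 4.17 and 6.97 in MCAO contra, 56.8 in mMCAO ipsi (24 UMIs) and 98.5 in sMCAO ipsi (58 UMIs in 27 of 297 nuclei). All contra and Sham libraries together held 5 UMIs. Cd44 rose by 4.47 ± 0.82 against Sham (edgeR adjusted p = 0.00041) and by 3.78 ± 0.54 against MCAO contra (2.56e-05). The call against Sham was not made by DESeq2 (adjusted p = 0.067), and its size went from 3.31 without Sham L to 7.93 without Sham R, which left no Sham UMI, and the call against MCAO contra held under every alternative run. The rise in OPC-like and astrocyte-like nuclei was not shown to differ, with a difference of log2 fold changes against Sham of -2.23 (limma adjusted p = 0.187; 0.0407% of genes differed), nor was any of the 3 members tested (Cd44, Itgav and Itgb1) against MCAO contra (0% of genes). Without Sham R the difference in Cd44 against Sham was -3.31. Sham L held no Cd44 UMI in either class, so this size depends on the prior count and is no bound.

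Myeloid-like nuclei held no Cd44 UMI in Sham, 9.98 and 17.7 CPM in MCAO contra (2 UMIs each), 88.6 in mMCAO ipsi (93 UMIs) and 192.0 in sMCAO ipsi (423 UMIs). Pooled MCAO ipsi was 12.4-fold (4.82 to 45.8) above MCAO contra and at least 1.20-fold above what 3 counts in Sham allow. In edgeR the log2 fold change over MCAO contra was 3.36 ± 0.65, with an unadjusted p of 0.00182 and an adjusted p of 0.576. It was called with the rat pool block (3.22, adjusted p = 0.0274), without the filter on low counts (3.44, 6.05e-07), without mMCAO ipsi (3.81, 1.78e-05) and without sMCAO ipsi (2.73, 0.0327). Of 9 members tested in myeloid-like nuclei none was called by edgeR, as was the case for all 9169 genes (0%; 772 genes and 3 members had an unadjusted p under 0.05), and DESeq2 called none either. The myeloid-like and astrocyte-like effects on Cd44 differed by -0.02 on the log2 scale (limma adjusted p = 0.991; 0% of genes differed). In sMCAO ipsi the order of Cd44 was astrocyte-like above myeloid-like nuclei without overlap of their intervals, while myeloid-like, fibroblast-like (145.6 CPM, 46 UMIs) and OPC-like nuclei each overlapped with the next.

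In the remaining classes Cd44 was low. Oligodendrocyte-like nuclei held at most 2 UMIs in any Sham or contra library and 8.99 and 16.2 CPM in MCAO ipsi, under the filter on low counts. Without the filter Cd44 was called there against Sham (3.63, edgeR adjusted p = 0.00809) and MCAO contra (3.84, 0.000109). Endothelial-like nuclei held 5 UMIs, all in sMCAO ipsi. Medium spiny neuron-like nuclei rose from 3.06 and 0.918 CPM in Sham to 7.51 and 8.01 CPM in MCAO ipsi (1.79 ± 0.44, edgeR adjusted p = 0.035), a call lost without any of the Sham or contra libraries (adjusted p = 0.0602 to 0.205), with only the 4 libraries compared (0.0655), without the deepest nuclei (0.114) and with free RNA subtracted (0.503), and given no adjusted p by DESeq2. Glutamatergic neuron-like nuclei (0.880 to 1.79 CPM in Sham and contra, 2.85 and 6.35 in MCAO ipsi) were called against MCAO contra with the rat pool block (1.78, edgeR adjusted p = 0.00657) and by DESeq2 (1.84, 0.0412), though not by edgeR without the block. Cd44 in other GABAergic neuron-like nuclei lay between 3.16 and 5.02 CPM in 5 libraries and at 12.6 in sMCAO ipsi.

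**Figure D3:**
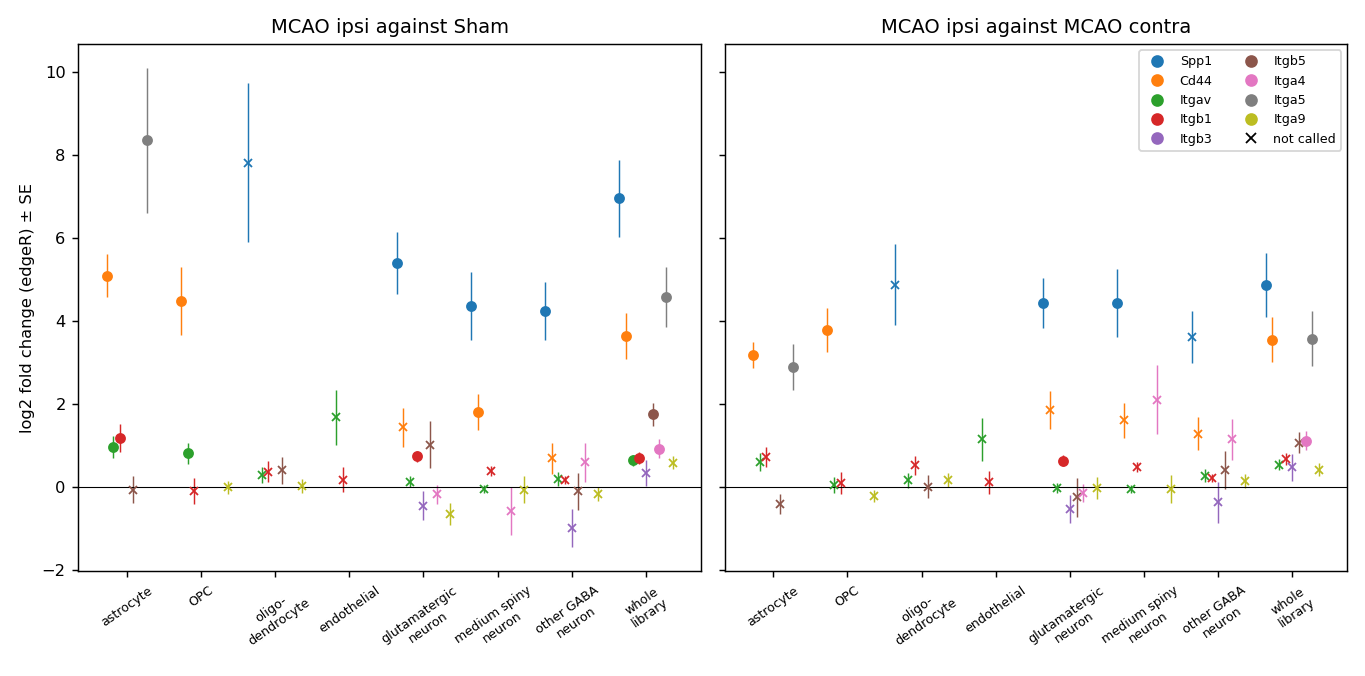
Log2 fold changes (edgeR, ± SE) of the members in each class for MCAO ipsi against Sham and MCAO ipsi against MCAO contra, with filled points for called genes and crosses for genes not called. Cd44 in astrocyte-like and OPC-like nuclei is called in both comparisons. None of the 5 members tested in oligodendrocyte-like and of the 2 tested in endothelial-like nuclei is called. The fitted values of Itga5 in astrocyte-like and Spp1 in oligodendrocyte-like nuclei against Sham, which held no UMI of them, depend on the prior count and are no bound.

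The alpha v subunit gene Itgav was present in all glial classes in every group. In astrocyte-like nuclei it measured 184.6 and 150.9 CPM in Sham, 247.3 and 185.1 in MCAO contra and 339.9 and 343.2 in MCAO ipsi. MCAO ipsi lay above all other libraries, while Sham and contra nearly touched. Itgav rose by 0.95 ± 0.27 against Sham (edgeR adjusted p = 0.028), a call lost without Sham L (0.104) or Sham R (0.188), with DESeq2 (0.117) and with the stricter gate (0.142), and gave 0.59 against MCAO contra (0.0875). In OPC-like nuclei the levels were 175.2, 114.4, 239.6, 271.6, 215.4 and 321.1 CPM from Sham L to sMCAO ipsi, so that contra and ipsi overlapped. Itgav rose against Sham there (0.81 ± 0.26, adjusted p = 0.0423) and stood at 0.03 against MCAO contra (0.953). The call was lost without Sham R (adjusted p = 0.339) or sMCAO ipsi (0.349), with DESeq2 (0.299), with only the 4 libraries compared (0.0673), without the deepest nuclei (0.0556) and with free RNA subtracted (0.0569). Oligodendrocyte-like nuclei ranged from 214.7 to 334.6 CPM with overlapping groups, and myeloid-like nuclei from 214.6 to 342.2 CPM in MCAO contra and ipsi. In sMCAO ipsi the intervals of astrocyte-like, myeloid-like, oligodendrocyte-like, OPC-like and fibroblast-like nuclei each overlapped with the next in order. The 3 tested neuron classes lay at 24.2 to 82.0 CPM without a call.

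Itgb1, the common beta1 partner, was highest in endothelial-like nuclei, where it varied little, with 455.1 and 469.3 CPM in Sham, 455.4 and 532.5 in MCAO contra and 507.6 and 507.3 in MCAO ipsi (log2 fold change 0.17 ± 0.30 against Sham, edgeR adjusted p = 0.849). In astrocyte-like nuclei it went from 77.7 and 113.2 CPM in Sham over 134.9 and 123.4 in MCAO contra to 181.1 and 253.4 in MCAO ipsi. The library values of the 3 groups did not overlap, but their intervals of counting error did. Those of MCAO contra were 97.2 to 182.3 and 77.4 to 186.9 CPM, against 148.2 to 219.0 in mMCAO ipsi. MCAO contra against Sham was not called (0.45, edgeR adjusted p = 0.766). Itgb1 rose by 1.17 ± 0.34 against Sham (adjusted p = 0.0331) and gave 0.72 against MCAO contra (0.0808), and the first call was lost without Sham L (0.269), Sham R (0.0942) or sMCAO ipsi (0.128), with DESeq2 (0.145), with the stricter gate (0.105) and with free RNA subtracted (0.0541). Glutamatergic neuron-like nuclei measured 36.6, 32.1, 41.2, 38.7, 52.6 and 70.5 CPM in the order of the libraries. Itgb1 rose there by 0.73 ± 0.13 against Sham (adjusted p = 0.0171) and 0.63 ± 0.13 against MCAO contra (0.0287), and without sMCAO ipsi both values fell under the fold threshold (0.56 and 0.46). These calls were also lost without any of the Sham or contra libraries (adjusted p = 0.0527 to 0.229). Over all alternatives run for glutamatergic neuron-like nuclei, the Itgb1 call against Sham was lost in 6 of 14 and that against MCAO contra in 8 of 15. In OPC-like nuclei Itgb1 lay between 61.0 and 116.8 CPM with -0.10 against Sham (0.9), and in oligodendrocyte-like nuclei between 47.0 and 85.0 CPM.

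Itgb5 and Itgb3, the other partners of alpha v, showed no call in the classes where they were tested. Both were under the filter on low counts in OPC-like, endothelial-like and medium spiny neuron-like nuclei, and Itgb3 also in astrocyte-like and oligodendrocyte-like nuclei. The shares of all genes called are given with the counts by class below, and for myeloid-like nuclei above. Itgb5 stood at 112.7 to 176.7 CPM in astrocyte-like nuclei of all groups (-0.07 against Sham, edgeR adjusted p = 0.944; -0.42 against MCAO contra, 0.302), at 23.4 to 67.7 CPM in oligodendrocyte-like nuclei, and at 99.8 and 159.6 in MCAO contra against 100.1 and 87.1 in MCAO ipsi in myeloid-like nuclei. In neuron-like classes it was at most 3.20 CPM. Myeloid-like and astrocyte-like nuclei held 26.0 and 16.4% of Itgb5 UMIs in mMCAO ipsi and 32.4 and 29.1% in sMCAO ipsi. The part that numbers of nuclei had in the whole-library difference was not tested. Itgb3 was sparse, with 19.1 and 31.8 CPM in myeloid-like nuclei of MCAO ipsi (20 and 70 UMIs) and 15.0 and 17.7 in MCAO contra (3 and 2 UMIs). Myeloid-like nuclei held 48.3% (39.9 to 56.7) of all Itgb3 UMIs in sMCAO ipsi. The 49 mural-like nuclei of that library held 7 Itgb3 UMIs (163.5 CPM, 65.7 to 336.8), above the myeloid-like level in counting error.

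**Figure D4:**
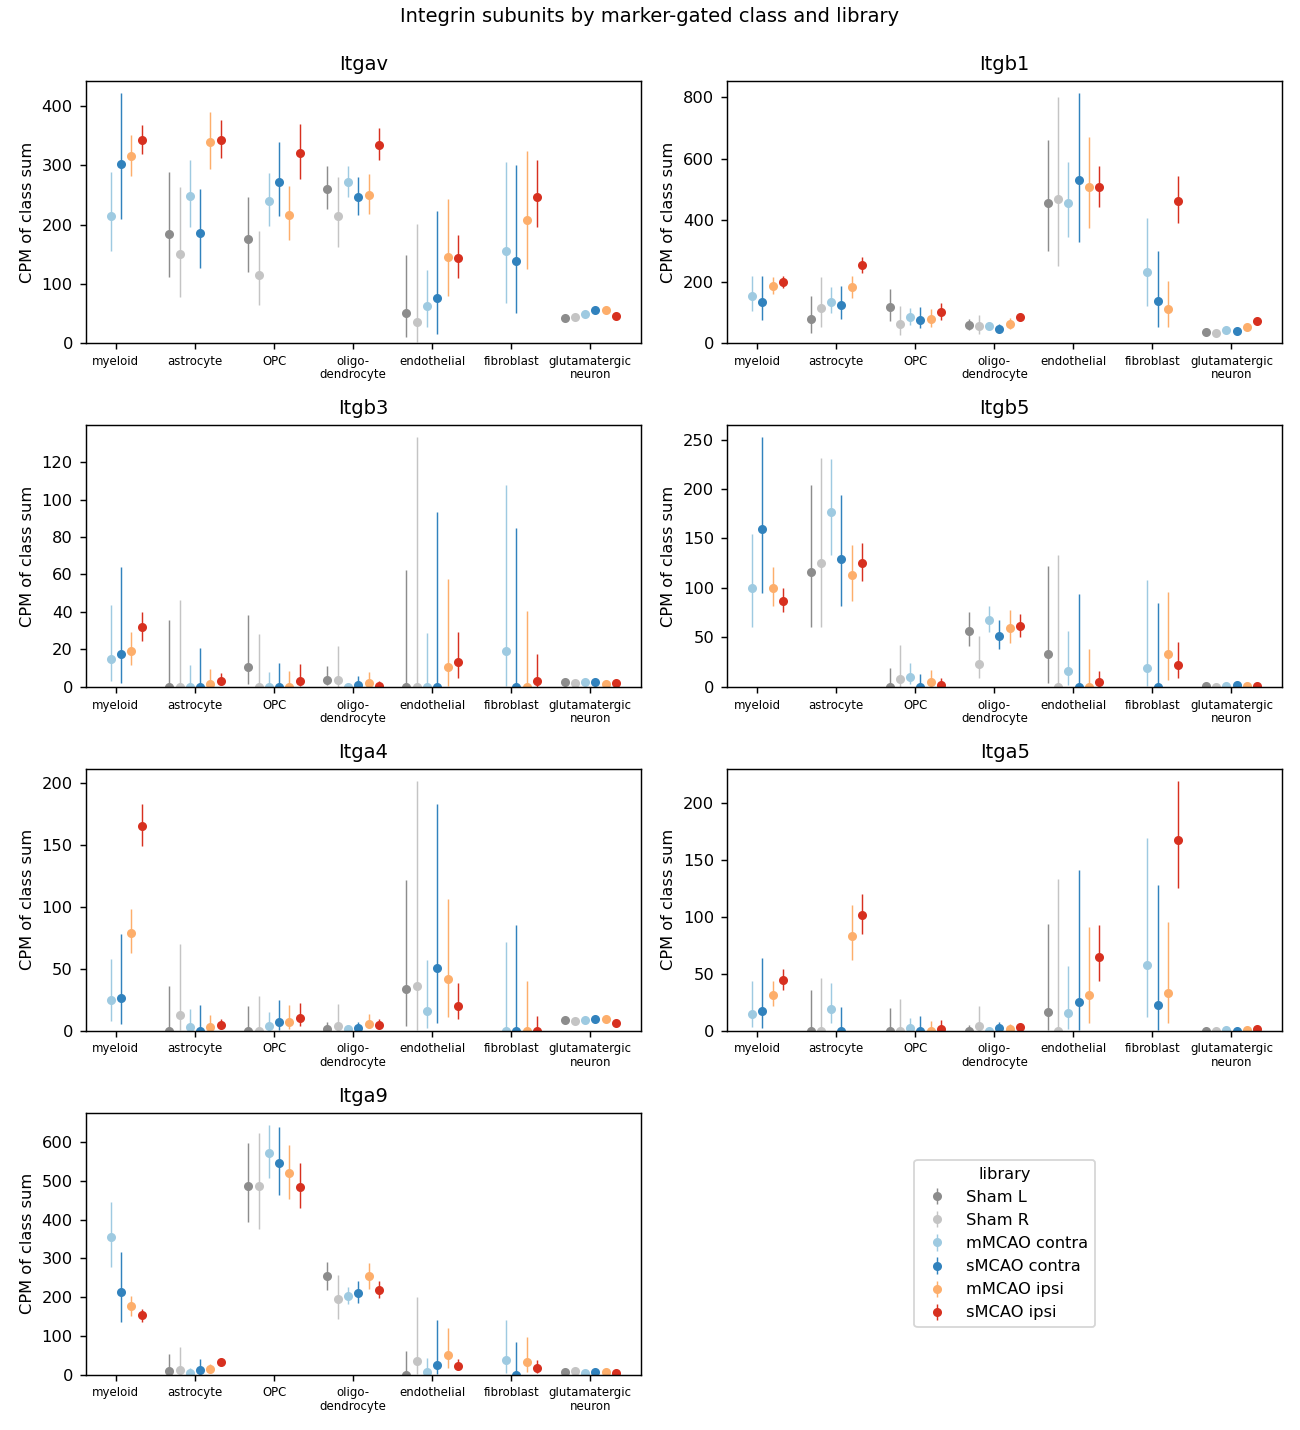
Levels of the 7 integrin subunit genes (CPM) by class and library, with exact 95% Poisson intervals. Itgb1 is highest in endothelial-like nuclei in all groups, Itga9 in OPC-like nuclei (sums of under 20 nuclei are not drawn), Itga4 in myeloid-like nuclei of MCAO ipsi, and Itga5 in astrocyte-like nuclei moves from at most 19.3 CPM outside to 83.7 and 101.5 CPM inside the infarcted hemisphere.

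Among the alpha partners of beta1, Itga5, the fibronectin receptor subunit, showed the clearest difference. In astrocyte-like nuclei no UMI was counted in Sham or sMCAO contra, 6 UMIs in mMCAO contra (19.3 CPM, 5 of them in 1 nucleus), 49 UMIs in mMCAO ipsi (83.7 CPM) and 139 in sMCAO ipsi (101.5 CPM). Only 18 of 394 nuclei in mMCAO ipsi and 45 of 494 in sMCAO ipsi held these UMIs, with 10 and 15 of them in the highest nucleus. Without that nucleus the levels were 67.1 and 90.8 CPM. The pooled MCAO ipsi level was at least 5.85-fold above what 3 counts over the Sham group allow, which leaves out this uneven spread. Itga5 rose by 2.89 ± 0.56 against MCAO contra (edgeR adjusted p = 0.0051), and this call held under every alternative run. Its size rests on the 6 UMIs of mMCAO contra, with 2.24 without sMCAO contra, 4.92 with the stricter gate and 8.44 without mMCAO contra, where no contra UMI was left, and the call against Sham (adjusted p = 0.00717) was lost without Sham L (0.0751) or Sham R (0.0565). In myeloid-like nuclei Itga5 measured 15.0 and 17.7 CPM in MCAO contra and 31.5 and 44.5 in MCAO ipsi (1.18 ± 0.54, adjusted p = 0.576), and its effect there was not shown to differ from that in astrocyte-like nuclei (-2.39, limma adjusted p = 0.481). Fibroblast-like nuclei, not tested, held 3 and 1 UMIs in MCAO contra, 3 UMIs in mMCAO ipsi (32.8 CPM) and 53 UMIs in 29 nuclei of sMCAO ipsi (167.8 CPM). OPC-like nuclei held 2 Itga5 UMIs in all 6 libraries together.

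Itga4, the leukocyte alpha4 subunit, was highest in myeloid-like nuclei of both MCAO ipsi libraries. It measured 25 and 26.6 CPM in MCAO contra (5 and 3 UMIs), 79.1 in mMCAO ipsi (83 UMIs) and 165.2 in sMCAO ipsi (364 UMIs). In sMCAO contra endothelial-like nuclei stood above them at 50.7 CPM (2 UMIs), within counting error. Pooled MCAO ipsi was 5.38-fold (2.71 to 12.5) above MCAO contra, while edgeR gave 2.18 ± 0.54 with an unadjusted p of 0.00625 and an adjusted p of 0.576. Myeloid-like nuclei held 19.9% (16.1 to 24.0) of all Itga4 UMIs in mMCAO ipsi and 65.4% (61.2 to 69.3) in sMCAO ipsi. Glutamatergic neuron-like nuclei kept Itga4 at 6.25 to 9.73 CPM in all libraries and held 34.0% of its UMIs in mMCAO ipsi.

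Itga9, the alpha9 subunit, was highest in OPC-like nuclei among classes with at least 20 nuclei, at 488.4 and 488.2 CPM in Sham, 572.9 and 546.7 in MCAO contra and 520.8 and 485.9 in MCAO ipsi. The groups overlapped, and the log2 fold changes were -0.02 against Sham (edgeR adjusted p = 0.976) and -0.23 against MCAO contra (0.398). Oligodendrocyte-like nuclei followed at 195.2 to 254.0 CPM, also with overlapping groups. In myeloid-like nuclei Itga9 measured 507.8 and 781.2 CPM in Sham (7 UMIs each), 354.4 and 212.7 in MCAO contra, and 176.3 and 152.9 in MCAO ipsi. Pooled MCAO ipsi was 0.529-fold (0.424 to 0.665) of MCAO contra, with an edgeR log2 fold change of -0.89 ± 0.30, an unadjusted p of 0.0242 and an adjusted p of 0.576.

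Counted by class, 4 of 5 tested members rose in astrocyte-like nuclei against Sham (15.1% of genes were called) and 2 of 5 against MCAO contra (12.1%). Some members passed the filter on low counts only through the MCAO ipsi libraries. Among them were Itga5 in astrocyte-like, Cd44 in OPC-like and Spp1 in oligodendrocyte-like and the tested neuron-like nuclei. The numbers of members tested, and the counts of calls, thus depend on the group in which these members were high. In OPC-like nuclei 2 of 4 rose against Sham (10.1%) and 1 of 4 against MCAO contra (8.87%). In oligodendrocyte-like nuclei edgeR called 0 of 5 against Sham (5.04% of genes; 1 member at an unadjusted p under 0.05) and 0 of 5 against MCAO contra (0.142%; 2 members), and DESeq2 called 0 in both, without an adjusted p for Spp1. Of the 2 members tested in endothelial-like nuclei none was called in MCAO ipsi against Sham or MCAO contra, as for all 2418 genes tested (0% each by edgeR; 412 and 301 genes at an unadjusted p under 0.05, 1 member against Sham; DESeq2 called 20 and 0 genes, no member, without an adjusted p for Itgav against Sham). In glutamatergic neuron-like nuclei 2 of 8 rose against Sham (5.17%) and 2 of 8 against MCAO contra (3.03%), in medium spiny neuron-like nuclei 2 of 6 (3.74%) and 1 of 6 (1.43%), and in other GABAergic neuron-like nuclei 1 of 8 (1.15%) and 0 of 8 (0.0776%; 3 members at an unadjusted p under 0.05, and 1, Spp1, called by DESeq2). No member fell. Between oligodendrocyte-like and astrocyte-like nuclei 3 members could be tested, and none was shown to differ in its response against Sham (0.413% of genes did) or MCAO contra (0%), with Itgb1 at -0.72 (limma adjusted p = 0.331), Itgav at -0.63 (0.374) and Itgb5 at 0.82 (0.409) against Sham. Cd44 was under the filter in that test. Without Sham R it was tested and gave -5.02 against Sham. There astrocyte-like nuclei had no Sham UMI of Cd44 left, so this size is no bound.

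In MCAO contra against Sham edgeR called no member in any class. The share of genes called was 0% in astrocyte-like, oligodendrocyte-like and endothelial-like nuclei and 0.379% in OPC-like nuclei. Among neurons it was 0.0217% for glutamatergic, 0.0332% for medium spiny and 0.0621% for other GABAergic neuron-like nuclei. At an unadjusted p under 0.05 stood 466 genes and 1 member in astrocyte-like, 822 genes and 0 members in oligodendrocyte-like, and 83 genes and 0 members in endothelial-like nuclei. DESeq2 called no member. It called 0 genes in astrocyte-like, 9 in OPC-like, 1 in oligodendrocyte-like and 0 in endothelial-like nuclei, and 35, 11 and 18 in the neuron classes as ordered above, where 6, 4 and 5 members had no adjusted p, as had 3 in OPC-like nuclei.

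Severe and moderate infarcts were compared as 1 library each, so that the ratios describe these libraries without a test. In myeloid-like nuclei sMCAO ipsi exceeded mMCAO ipsi in Spp1 (2.35-fold, 2.08 to 2.67), Cd44 (2.17, 1.73 to 2.74) and Itga4 (2.09, 1.64 to 2.68). The ratios of Itgav (1.09, 0.952 to 1.24), Itgb1 (1.07, 0.899 to 1.27), Itgb5 (0.871, 0.683 to 1.12) and Itga9 (0.867, 0.723 to 1.04) had intervals that include 1, as did that of Itga5 (1.41, 0.944 to 2.17), and Itgb3 lay at 1.67 (1.002 to 2.89) from 20 and 70 UMIs. In astrocyte-like nuclei Itgb1 (1.40, 1.12 to 1.76) and Cd44 (1.23, 1.08 to 1.40) were higher in the severe library, and Itga5 gave 1.21 (0.870 to 1.72). Itga9 gave 2.35 (1.09 to 5.78) there, from 8 and 44 UMIs. OPC-like nuclei gave 1.73 (1.06 to 2.92) for Cd44 and 1.49 (1.16 to 1.94) for Itgav, with Itga9 at 0.933. In oligodendrocyte-like nuclei the ratios were 3.37 (1.73 to 7.34) for Spp1, 1.34 (1.15 to 1.57) for Itgav and 1.38 (1.01 to 1.91) for Itgb1. Fibroblast-like nuclei gave 4.23 (2.23 to 9.0) for Itgb1 and 5.11 (1.66 to 25.6) for Itga5, and the class was 101 nuclei in mMCAO ipsi and 167 in sMCAO ipsi. Severity and animal pool cannot be told apart here.

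**Figure D5:**
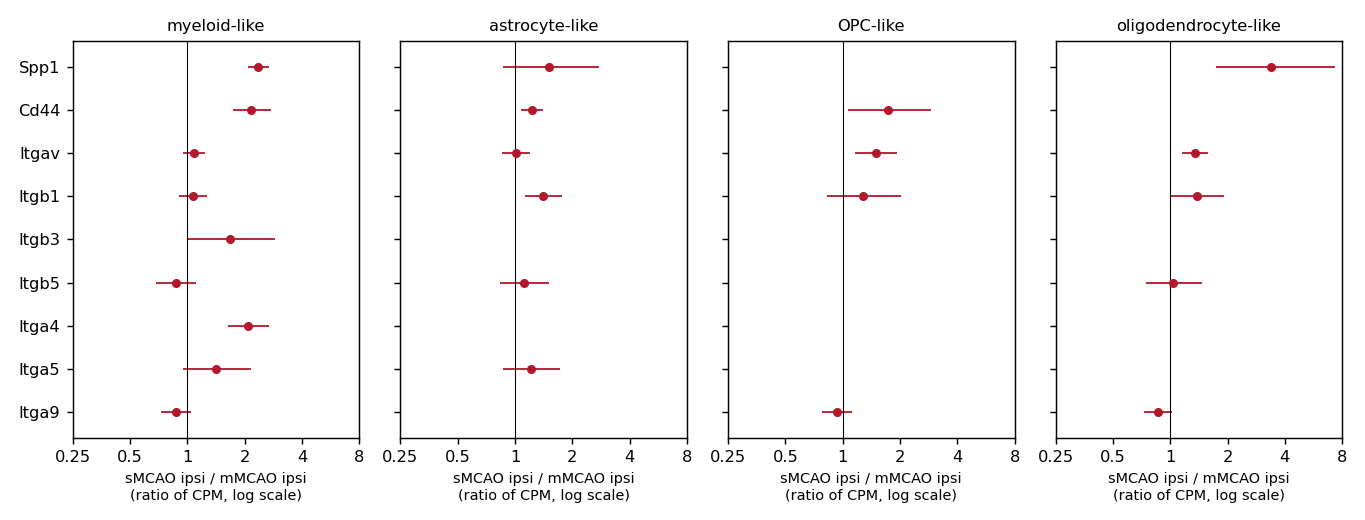
Ratio of sMCAO ipsi to mMCAO ipsi CPM (log axis) for members with at least 10 UMIs in mMCAO ipsi in myeloid-like, astrocyte-like, OPC-like and oligodendrocyte-like nuclei, with exact 95% Poisson intervals. In myeloid-like nuclei Spp1, Cd44 and Itga4 lie near 2 while Itgav, Itgb1, Itgb5 and Itga9 lie near 1, with Itga5 (1.41) and Itgb3 (1.67) between them.

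Myeloid-like nuclei of MCAO ipsi were further split by lists of microglia, macrophage and dendritic cell markers, which left 548 of 950 and 850 of 1710 nuclei with none of these. A list needed at least 2 UMIs, and that of dendritic cells includes Cd74, RT1-Db1, RT1-Da and RT1-Ba. Dendritic cell-like outnumbered macrophage-like nuclei in sMCAO ipsi (270 against 129), whereas the study described several macrophage clusters and a smaller dendritic cell cluster. The names thus describe list matches only. In sMCAO ipsi Spp1 was at 648.6 CPM (593.3 to 707.6) in 461 microglia-like, 411.4 (321.9 to 518.1) in 129 macrophage-like, 430.0 (358.2 to 512.0) in 270 dendritic cell-like and 850.9 (793.4 to 911.4) in the undivided nuclei. Spp1 was thus lower in both macrophage-like and dendritic cell-like than in microglia-like nuclei beyond counting error. In mMCAO ipsi the microglia-like nuclei were the lowest, at 178.0 CPM (142.6 to 219.6) against 398.6 (345.1 to 457.9) in undivided nuclei, and the order of sMCAO ipsi did not hold. Cd44 in sMCAO ipsi was lowest in microglia-like nuclei (78 UMIs, interval of 79.0 to 124.8 CPM), with 191.1 CPM (144.4 to 248.2) in dendritic cell-like and 291.4 (217.0 to 383.2) in macrophage-like nuclei. Itga4 was highest in dendritic cell-like nuclei of both libraries, at 286.3 CPM (12 UMIs) in 48 nuclei and 481.2 CPM (405.1 to 567.6) in 270 nuclei, against 47.1 and 62.8 CPM in microglia-like nuclei.

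Spp1 and Cd44 were counted in the same myeloid-like nuclei. After thinning, 51 of 130 nuclei with a Cd44 UMI in sMCAO ipsi also held Spp1 (39.2%, 30.8 to 48.2), against 257 of 794 without Cd44 (32.4%, 29.1 to 35.8), and in mMCAO ipsi 5 of 27 and 43 of 271 did. The intervals overlapped in both libraries.

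Nuclei with at least 5 UMIs and 0.2% of their UMIs from 27 cell cycle genes were compared with the others of their class, first in MCAO ipsi. Itga5 in astrocyte-like nuclei was 3.88-fold (2.12 to 7.24) higher in such nuclei of mMCAO ipsi and 8.13-fold (5.12 to 13.5) in sMCAO ipsi, where 132 of 494 nuclei held 117 of 139 Itga5 UMIs. Cd44 in astrocyte-like nuclei differed less, with ratios of 1.37 (1.08 to 1.74) and 1.19 (1.04 to 1.36). In OPC-like nuclei Cd44 gave 1.94 (0.785 to 4.68) and 2.29 (1.32 to 3.99), while Itga9 was lower in nuclei with cell cycle transcripts (0.555, 0.388 to 0.779, and 0.591, 0.444 to 0.778). In myeloid-like nuclei Cd44 was lower in them (0.539, 0.329 to 0.859, and 0.557, 0.445 to 0.693), as was Itga4 in sMCAO ipsi (0.383, 0.292 to 0.497), and the ratios of Spp1 were 0.940 and 1.13. In MCAO contra, from 13 and 32 Spp1 UMIs, the ratio of Spp1 was 5.28 (1.47 to 18.4) with 21 such myeloid-like nuclei in the moderate and 9.10 (3.95 to 23.4) with 25 in the severe library. Those UMIs lay in 7 and 11 nuclei, with 6 and 11 of them in the highest nucleus, so that both ratios rest on few nuclei. Their intervals leave out the spread between nuclei. Nuclei with cell cycle transcripts were deeper, with medians of 3917.5 against 1996.5 UMIs in astrocyte-like and 1850 against 905 in myeloid-like nuclei of sMCAO ipsi, and the part of depth was not tested.

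Genes that act with the members were counted from 5 lists, and list genes named beyond the 3 largest changes of a class were chosen after their values were seen. The counts stand beside the shares of all genes called given above, which in OPC-like nuclei were 10.1% against Sham and 8.87% against MCAO contra. Among other ligands of the same receptors, both genes tested in OPC-like nuclei rose in both comparisons. Tnc, encoding tenascin-C, measured 31.9 and 15.3 CPM in Sham, 56.3 and 97.5 in MCAO contra and 127.8 and 185.2 in MCAO ipsi, without overlap of the library values of the 3 groups (2.60 ± 0.44 against Sham, edgeR adjusted p = 0.000149, and 1.06 ± 0.27 against MCAO contra, 0.00962). Edil3, encoding a secreted RGD protein, rose by 0.88 ± 0.15 against Sham (adjusted p = 0.000119) and 0.70 ± 0.13 against MCAO contra (0.000814). In astrocyte-like nuclei 3 of 5 tested ligands rose in both comparisons, with a median log2 fold change of 2.45 against Sham over the 5 and of 0.03 over all genes. Hbegf, a growth factor that binds EGF receptors, measured 0 CPM in Sham, 12.9 and 0 in MCAO contra and 63.2 and 159.2 in MCAO ipsi (3.76 ± 0.73 against MCAO contra, adjusted p = 0.00509). Fn1, encoding fibronectin, measured 0 and 12.6 CPM in Sham, 16.1 and 72.9 in MCAO contra and 148.6 and 189.1 in MCAO ipsi (4.83 ± 0.93 against Sham, adjusted p = 0.00406; 2.11 ± 0.45 against MCAO contra, 0.0078). The third was Tnc (2.45 ± 0.42 against Sham, 0.00193; 1.85 ± 0.33 against MCAO contra, 0.0028). In oligodendrocyte-like nuclei the single ligand tested, Edil3, rose against Sham (0.66 ± 0.14, adjusted p = 0.0288).

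Of the hyaluronan and CD44 partners, 2 of 5 rose in astrocyte-like nuclei in both comparisons and 1 of 3 in OPC-like nuclei. Hmmr, which encodes a hyaluronan-binding protein of the mitotic spindle, stood at 78.6 and 99.3 CPM in astrocyte-like nuclei of MCAO ipsi (3.40 ± 0.58 against MCAO contra, edgeR adjusted p = 0.00261) and at 87.6 and 88.3 CPM in OPC-like nuclei (1.93 ± 0.46 against Sham, 0.00478; 2.29 ± 0.36 against MCAO contra, 9.09e-05). Ezr, encoding ezrin, which links CD44 to actin, rose in astrocyte-like nuclei (1.46 ± 0.43 against Sham, 0.0358; 1.03 ± 0.31 against MCAO contra, 0.0429). Cemip2, encoding a hyaluronidase, was the single call among 4 tested partners in oligodendrocyte-like nuclei. It fell from 81.2 and 175.7 CPM in Sham and 97.2 and 79.8 in MCAO contra to 20.2 and 15.7 in MCAO ipsi (-2.74 ± 0.37 against Sham, adjusted p = 0.0146; -2.37 ± 0.34 against MCAO contra, 0.0429).

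Of the integrin adhesion complex genes, which link integrins to actin, 5 of 18 rose in astrocyte-like nuclei in each comparison (15.1 and 12.1% of all genes tested were called), with Actn1, Vcl, Rsu1 and Lims1 in both, Ilk against Sham and Parva against MCAO contra. Actn1, encoding alpha-actinin, rose by 1.76 ± 0.47 against Sham (edgeR adjusted p = 0.0227) and 1.64 ± 0.35 against MCAO contra (0.00823). In oligodendrocyte-like nuclei, where 5.04% of all genes were called, 3 of 18 fell against Sham, namely Tns1 (-2.03 ± 0.32, 0.0177), Actn1 (-1.44 ± 0.33, 0.0409) and Tln2 (-0.80 ± 0.18, 0.038), and none of 14 passed in OPC-like nuclei. The calls in Actn1 thus had opposite signs in the 2 classes, and the difference itself was not tested for this gene.

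Of the other integrin subunits, 8 of 17 tested rose and 1, Itga8, fell in whole libraries against Sham, led by the leukocyte subunits Itgam (5.82 ± 0.61, edgeR adjusted p = 0.00862) and Itgax (5.42 ± 0.85, 0.0182) and by Itga2 (4.45 ± 1.10, 0.0428). Against MCAO contra 5 of 17 rose, led by Itgax (4.58 ± 0.77, 0.0328), Itgam (3.90 ± 0.51, 0.0244) and Itgal (3.72 ± 0.59, 0.03). None of 2 passed in astrocyte-like nuclei, and of 2 in OPC-like nuclei Itga8 rose against MCAO contra (1.15 ± 0.37, 0.0467). Beside the 13.2 and 4.75% of all genes called in whole libraries, 6 of 16 ligands rose against Sham and 3 of 16 against MCAO contra (Tnc, Hgf and Postn), of the hyaluronan and CD44 partners 5 of 14 (Has2, Ezr, Srgn, Tnfaip6 and Hmmr) and 2 of 14 (Ezr and Hmmr), and of the adhesion complex genes 6 of 24 and 2 of 24 (Fermt3 and Parvg). Mmp9, which encodes a matrix metalloproteinase, was 1 of 2 tested proteases that cut osteopontin and rose in whole libraries against Sham (2.80 ± 0.50, adjusted p = 0.0223) and MCAO contra (2.14 ± 0.44, 0.0472), and no protease was high enough to be tested in the glial classes. No gene of the 5 lists was called in endothelial-like or myeloid-like nuclei, where none of all 2418 and 9169 genes tested was called (0%).

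Against Sham in glutamatergic neuron-like nuclei, with 5.17% of all genes called, 3 of 11 ligands (Tgfbi, Edil3 and Hgf), 2 of 11 other integrin subunits (Itgam and Itga1), 2 of 11 hyaluronan and CD44 partners (Ezr and Tnfaip6) and 2 of 21 adhesion complex genes (Ilk and Lims1) rose, and Itga8 and Actn4 fell. The largest changes were those of Tgfbi (4.63 ± 0.92, edgeR adjusted p = 0.0229), Itgam (4.51 ± 0.80, 0.0174) and Itga1 (3.73 ± 0.91, 0.0403) against Sham, and Tgfbi (3.54 ± 0.75, 0.0336), Itgam (2.91 ± 0.58, 0.028) and Fn1 (2.77 ± 0.63, 0.0406) against MCAO contra. In medium spiny neuron-like nuclei Fn1 (4.07 ± 1.03, 0.0405), Itgam (2.79 ± 0.73, 0.0447) and Tnc (2.30 ± 0.62, 0.0494) rose against Sham, as did Ilk (1 of 19 adhesion complex genes), while Postn fell. Against MCAO contra Itgam (4.23 ± 0.88, 0.0331) and Itga6 (1.13 ± 0.18, 0.0098) rose. Itgam, a myeloid subunit, reached no more than 2.5 CPM in these classes. In other GABAergic neuron-like nuclei Ilk, 1 of 20 adhesion complex genes tested, was the single call of the 5 lists (1.23 ± 0.21 against Sham, 0.0213). There 1.15% of all genes were called against Sham.

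Across 56 sums of a class in a library, the genes most like Spp1 in log2(CPM + 5) were Mpeg1 (Pearson r = 0.879), Lilrb4 (0.859), Lgals3 (0.846), Plau (0.836) and Itgam (0.829), among 13866 genes. The genes most like Cd44 were Tnc (0.828), Gas2l3 (0.771), Knstrn (0.771), Dlgap5 (0.767) and Mastl (0.763). Spp1 and Cd44 correlated with each other at 0.598. Of the integrin genes Itga5 was nearest to Cd44 (0.567) and Itgb3 to Spp1 (0.571), and Itga9 was farthest from both (0.249 with Spp1 and 0.117 with Cd44). The sums share libraries, and classes of 1 library share its depth, so these values are descriptions.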

How the data were processed

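The deposited files were filtered 10x matrices of UMI counts, which the authors made with the Chromium Single Cell 5' v2 kit and Cell Ranger 7.0.0 on mRatBN7.2, with intronic reads counted. The ambient RNA removal and doublet calling of the study are not part of the deposited counts. Here nuclei with at least 500 UMIs, 250 to 5000 genes and at most 5% mitochondrial UMIs were kept. A nucleus entered a non-neuronal class when its neuron markers were under 40% of the library's neuron level and it held at least 3 UMIs of the class list, at least 0.2% of its UMIs, at least 5-fold over the level in neurons and 2-fold over the next list. The settings were chosen after marker counts were seen. No doublet caller was run: nuclei of several classes were left out as mixed. Shares of nuclei with a UMI used nuclei thinned to 1000 UMIs.

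Counts were summed per class and library and tested with edgeR 4.0.16 (TMM, filterByExpr, quasi-likelihood F test, all 6 libraries in 1 fit, R 4.3.3) for classes with at least 20 nuclei in every library, and the SE is the fold change divided by the root of F. Myeloid-like nuclei numbered 13 and 12 in Sham, so their fit used the 4 contra and ipsi libraries, a change made after seeing the data. Differences between classes were tested with limma 3.58.1 on log2 CPM (prior count 2) within libraries, called at an adjusted p under 0.05. DESeq2 1.42.0 was an alternative. In simulated data of the 9 fits, 15.4 to 77.0% of 2-fold and 75.9 to 99.0% of 4-fold changes were recovered, the lowest in the myeloid-like fit. The simulation gave all genes the same spread and the libraries of a group equal expected CPM. Real libraries of a group differed in severity, so these shares do not give the power of the real fits. Contra and ipsi libraries of 1 severity come from the same rats and are paired by origin, and the correlation of their deviations from group means was -0.074 to 0.163 over 8 sets of sums. No column of another series was found (0). The members, lists and tests were chosen with earlier results of these data known. List genes named are the 3 called genes with the largest absolute fold change per class and comparison and the 5 genes most like Spp1 or Cd44 over class sums, among genes with at least 200 UMIs. Precision is limited by counting (3 UMIs were the floor for a count of 0) and by 2 libraries per group. Alternatives were other gates, filters, normalization, prior counts, libraries left out, the rat pool block and 10% free RNA subtracted. Figures used matplotlib 3.10.9 and intervals scipy 1.17.1.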

Additional observations from a re-analysis of the deposited data

How the results depend on the processing

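For 31 results, the members called in a class or in whole libraries and Spp1, Cd44 and Itga4 in myeloid-like nuclei, no alternative reversed the direction: 270 values kept it and their side of the threshold, 110 lost the call and 9, all in myeloid-like nuclei, gained it. Calls gained by members outside these results are counted next. The 11 class calls in MCAO ipsi against Sham became 4 with DESeq2 (3 of the other 7 had no adjusted p), 18 without a filter on low counts, 7 with only the 4 libraries compared and 5 with free RNA subtracted, and 2 to 18 on leaving out a library (2 without Sham R, 3 without Sham L, 18 without mMCAO ipsi). The 6 class calls against MCAO contra became 15 without the filter and 3 to 16 on leaving out a library (3 without mMCAO contra, 16 without mMCAO ipsi). In MCAO contra against Sham, 0 became 1, Itga4 in medium spiny neuron-like nuclei (-2.68 to -2.70 on the log2 scale), without the filter, with 4 libraries and without either ipsi library (0 to 1). Over whole libraries, with only the 4 libraries compared, 7 calls against Sham became 1, 4 against MCAO contra became 0, and 0 in MCAO contra against Sham became 2 (Spp1, 2.10, and Itgb5, 0.68), with ranges of 0 to 9, 0 to 8 and 0 to 2 on leaving out a library. In myeloid-like nuclei 0 calls became 3 without the filter, 2 with the replicate block of rat pools and 0 to 4 on leaving out a library (4 without mMCAO ipsi, 1 without sMCAO ipsi), and with all 6 libraries 0 of 4978 genes were called. The block took no call away, and where it added one its value stands in the report. The differences between classes gave 0 to 1 calls without a library: Cd44 without Sham R, lower than in astrocyte-like nuclei by a log2 fold change of -3.31 for OPC-like and -5.02 for oligodendrocyte-like nuclei, and Itga5 in myeloid-like nuclei (-4.11) without mMCAO contra. The share of Spp1 UMIs in myeloid-like nuclei was 45.0% (mMCAO ipsi) and 65.4% (sMCAO ipsi) with the stricter gate, and 63.3 and 78.5% without mixed and unassigned nuclei. The share of astrocyte-like nuclei with Cd44 in sMCAO ipsi was 52.8% without thinning. With free RNA subtracted, Spp1 in glutamatergic and medium spiny neuron-like nuclei gave no value, as it fell under the filter. The cause of these changes was not tested, and the fits with fewer libraries have fewer residual degrees of freedom.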
